A study of Danio rerio with 19 samples.

Results

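The H3K9me3 peaks of old brain at night were compared with those of young brain in the day. H3K9me3 is histone H3 trimethylated on lysine 9. The old list comes from zebrafish brain at 20 months (20 M) and ZT16, 16 h after lights on. The young list comes from brain at 4 months (4 M) and ZT4, 4 h after lights on. All 87948 peaks of the 20 M ZT16 list and all 70317 peaks of the 4 M ZT4 list were taken, 158265 of the 242100 peaks in the 6 lists of the series. A site is a set of peaks joined by an overlap of at least 1 bp, and at sites with exactly 1 peak in each list the rank of the score and the length of both peaks were compared. A peak that overlapped none of the other list was counted as alone.

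The series holds chromatin immunoprecipitation sequencing of brain at 3 ages and 2 times of day, with 3 H3K9me3 libraries in each of 6 groups and 1 GFP antibody library. The fish of both groups were entrained to cycles of 12 h light and 12 h dark for 1 week before the brain was taken. The fish of both groups were wild type, of the SAT line per the study's methods, and had no treatment named beyond the light cycle. The sources do not say whether a library came from 1 brain or from pooled brains. The label brain could not be checked against marker genes, because a list of H3K9me3 peaks holds no expression value.

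Each group is represented by 1 list, called by the authors on the 3 libraries together. The study's methods state a number of reads without giving it per library, and the lists hold no read counts and no value for a single library. The depth behind a peak is therefore unknown, and no difference between them carries a replicate error or a test. Age and time of day differ together between these groups and cannot be told apart here. How many peaks a caller returns depends on how deeply a library was read and on the yield of the pull-down. A site without a peak in one list is a site not called, which is not the same as absence of the mark.

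H3K9me3 is laid down by the SUV39 and SETDB1 families of histone methyltransferases and is read by heterochromatin protein 1, which packs the DNA into a compact, mostly silent state. It covers transposable elements, satellite repeats and arrays of repeated genes in vertebrates, and it also lies at some protein-coding genes in a tissue-dependent way. The long arm of zebrafish chromosome 4 is a known block of late-replicating heterochromatin, rich in repeats, small-RNA genes and repeated gene families.

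Nearly every peak called in young brain in the day was also called in old brain at night, while the longer old list added a large set of low-scoring peaks. Both lists had a peak at 67376 sites, and 66703 of these (99.0%) had exactly 1 peak in each. A further 512 sites joined several 20 M ZT16 peaks to 1 of 4 M ZT4, 148 sites joined 1 to several, and 13 joined several to several. No overlap was found for 19998 of the 20 M ZT16 peaks (22.7%, Wilson 95% interval 22.5 to 23.0) and for 2774 of the 4 M ZT4 peaks (3.94%, 3.80 to 4.09). These intervals cover counting error only, and neighbouring peaks are not independent draws. With the 20 M ZT16 list reduced to its 70317 highest-scoring peaks, 4180 were alone at 20 M ZT16, against 4439 at 4 M ZT4. Near-equal counts follow from the equal size, so this setting does not show what made the imbalance. The 20 M ZT16 list covered 10.2 Mb with peaks of 39 to 5798 bp, and the 4 M ZT4 list covered 7.86 Mb with peaks of 46 to 3206 bp, the median length being 73 bp in each.

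Where both lists had 1 peak, the peaks lay at almost the same place. Their centres were within 10 bp of each other at 62981 of the 66703 sites (94.4%) and more than 100 bp apart at 383 (0.574%). The median length was 73 bp in the 20 M ZT16 list and 72 bp in the 4 M ZT4 list. The 20 M ZT16 peak was longer at 30744 sites (46.1%), shorter at 29767 (44.6%) and of equal length at 6192 (9.28%). At 1336 sites (2.003%) it was at least 2 times as long as the 4 M ZT4 peak, and at 305 sites (0.457%) the 4 M ZT4 peak was at least 2 times as long. Start and end were identical at 1315 sites (1.97%).

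The score of a peak ran from 10 to 552 (median 187) at 20 M ZT16 and from 10 to 304 (median 112) at 4 M ZT4. The lists name no scale for it, and it depends on depth, so each score was turned into its percentile within its own list. Across the 66703 sites the percentiles had a Pearson correlation of 0.919 and a Spearman correlation of 0.920, a description across sites that share their libraries and their sequence. Of the top 10% of each list at these sites, 6062 sites were in both, 70.0% of the 8658 sites of 20 M ZT16 and 88.7% of the 6835 sites of 4 M ZT4. The cut was made on whole lists of unequal length, so at most 6835 of the 8658 sites could be in both. The agreement of ranks was closer at sites long in both lists than at sites short in both. Sites over 200 bp in only 1 of the lists are in neither class. The Spearman correlation was 0.976 at the 6186 sites over 200 bp in both lists and 0.908 at the 59226 sites of up to 200 bp in both.

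**Figure D1:**
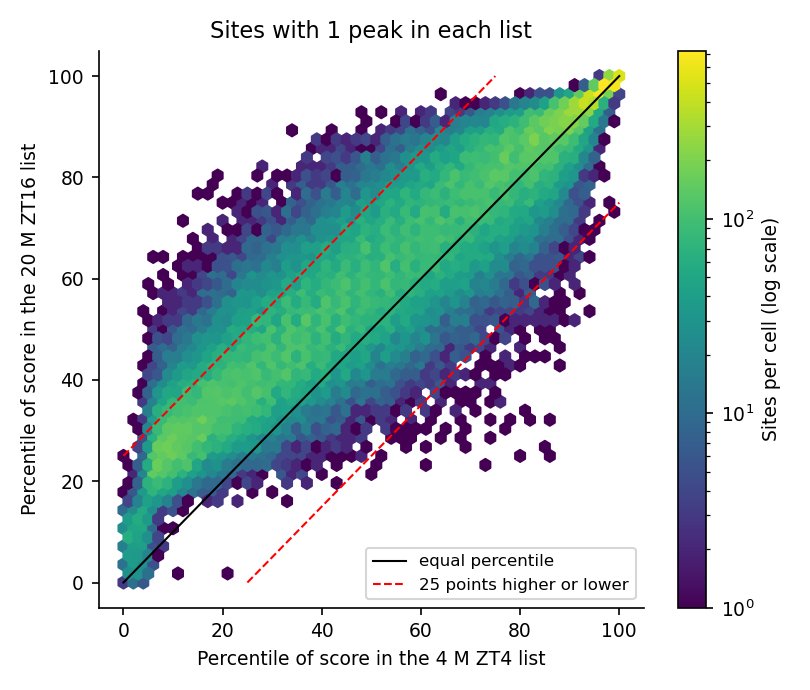
Percentile of the peak score in the 20 M ZT16 list (vertical axis) against that in the 4 M ZT4 list (horizontal axis) at the 66703 sites with 1 peak in each list, with the number of sites per cell on a log colour scale. The cloud lies above the line of equal percentile in its lower part and joins it at the top, and 5296 sites lie above the upper dashed line (25 points higher) against 183 below the lower one.

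Within the whole lists, the percentile was higher at 20 M ZT16 at 53697 sites (80.5%). It was at least 25 points higher at 5296 sites (7.94%) and at least 25 points lower at 183 (0.274%), with a median difference of 8.56 points (20 M ZT16 minus 4 M ZT4, interquartile range 1.099 to 16.7). This offset is set by the construction of a percentile. The 19998 peaks alone at 20 M ZT16 stand mostly at the bottom of that list and lift the peaks above them, most at the low end: the median difference was 17.7 points for sites at percentiles 10 to 20 of the 4 M ZT4 list and 0.378 points for those above percentile 90. When percentiles were taken among the 66703 sites only, the median difference was 0.0375 points, 50.3% of sites were higher at 20 M ZT16, and 1396 sites were at least 25 points higher against 1435 at least 25 points lower. With the longer list reduced to its 70317 highest-scoring peaks, the median difference was -0.21 points and 48.6% of sites were higher at 20 M ZT16. A balance near 50% follows from ranking the same or nearly the same sites in each list, so neither version measures a direction of change over all shared sites. The offset differs with level. Percentiles among the shared sites are therefore given beside the whole-list values for most gene lists and for some single sites. Whole-list differences that stand without them include this offset.

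The sites at both extremes differed in the shape of their peaks. At the 5296 sites at least 25 points higher at 20 M ZT16, the median length was 69 bp at 20 M ZT16 against 65 bp at 4 M ZT4, and 0.642% had a 20 M ZT16 peak at least 2 times as long. At the 183 sites at least 25 points lower, the median length was 183 bp at 20 M ZT16 against 75 bp at 4 M ZT4, and 104 of the 183 (56.8%) had a 20 M ZT16 peak at least 2 times as long. The 20 M ZT16 peak was the longer one at 72.8% of the higher sites and 91.3% of the lower ones. This held at 43.6% of the 61224 sites in between. Seen from the lengths, the 1336 sites with the much longer 20 M ZT16 peak had a median difference of 2.23 points, against 8.70 points at the 65062 sites where neither peak was 2 times the other. Of the sites at least 25 points lower, 180 were also called at 4 M ZT16 and 60 at 20 M ZT4. Of the sites at least 25 points higher, 79.1% were called at 4 M ZT16 and 8.86% at 20 M ZT4, against 81.9% and 29.1% of the 61224 sites in between. The 4 M ZT16 list holds 55874 peaks and the 20 M ZT4 list only 19177, which limits the shares found there. The cut was made on whole-list percentiles, so these sets also differ in rank. The median percentile at 4 M ZT4 was 26.2 at the higher sites, 79.5 at the lower ones and 55.5 in between. Lengths and shares were not compared at matched rank.

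Single sites show both patterns. The widest difference in favour of 20 M ZT16 was at chr18:48196093-48196167 (GRCz10), where the peak had percentile 77.4 and 75 bp at 20 M ZT16, against percentile 15.1 and 63 bp at 4 M ZT4. It was followed by chr2:44819571-44819664, with percentile 80.5 at 20 M ZT16 and 19.4 at 4 M ZT4, and by chr1:7590695-7590787, with 78.1 at 20 M ZT16 and 18.1 at 4 M ZT4. These were narrow peaks of nearly the same outline in both lists. In the other direction, chr17:48698712-48699431 was a peak of 720 bp at percentile 25.1 at 20 M ZT16, and within it the 4 M ZT4 list had a peak of 102 bp at percentile 85.1. At chr25:29586903-29587314 a peak of 412 bp at percentile 26.6 at 20 M ZT16 stood over one of 78 bp at percentile 84.3 at 4 M ZT4. At chr18:40677754-40678171 a peak of 418 bp at percentile 31.4 at 20 M ZT16 met one of 90 bp at percentile 85.8 at 4 M ZT4. The 3 sites highest in both lists lay on scaffolds that are not placed on a chromosome, and their peaks of 384 to 746 bp at 20 M ZT16 and 386 to 739 bp at 4 M ZT4 were above percentile 99 in each. On scaffolds the Spearman correlation of ranks was 0.966 over 1889 sites.

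The peaks of one list alone were almost all at the bottom of that list. At 20 M ZT16 they had a median score of 29, against 219 for peaks shared with 4 M ZT4, and 19359 of the 19998 (96.8%) lay under percentile 30. At 4 M ZT4 they had a median score of 17, against 115 for shared peaks, and 2707 of the 2774 (97.6%) lay under percentile 10. In the bottom 10% of the list, 8085 of 8774 peaks (92.1%) were alone at 20 M ZT16 and 2707 of 7106 (38.1%) at 4 M ZT4. Above percentile 50 only 4 peaks were alone at 20 M ZT16 and 3 at 4 M ZT4.

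**Figure D2:**
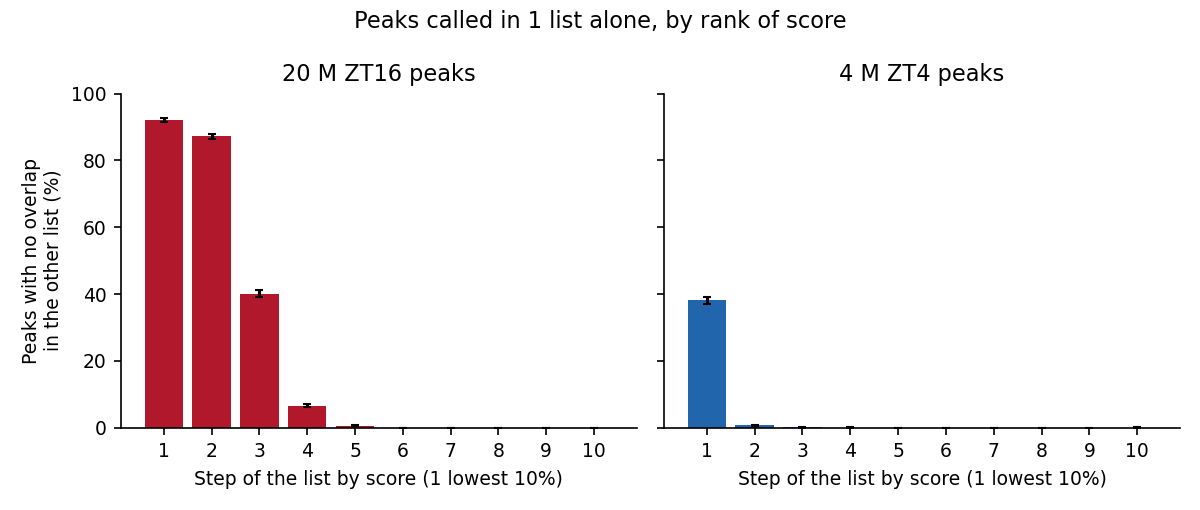
Share of peaks (%) with no overlap in the other list, by position in the list ranked by score, in 10 equal steps from lowest (1) to highest (10), for the 20 M ZT16 list (left) and the 4 M ZT4 list (right). Bars are shares of the peaks in each step and error bars are Wilson 95% intervals. The share reached 92.1% in the lowest step at 20 M ZT16 and 38.1% at 4 M ZT4, and fell to near 0 above percentile 40 at 20 M ZT16 and above percentile 10 at 4 M ZT4.

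Few of these peaks were called anywhere else in the series. Of the 19998 peaks alone at 20 M ZT16, 192 overlapped a 4 M ZT16 peak, 82 a 20 M ZT4 peak and 21 a 12 M ZT16 peak, and 19725 (98.6%) were in no other list. Of the peaks shared with 4 M ZT4, 81.8% were also called at 4 M ZT16 and 27.8% at 20 M ZT4. Of the 2774 peaks alone at 4 M ZT4, 87 were called at 4 M ZT16 and 34 at 20 M ZT4, and 2658 (95.8%) were in no other list. The 12 M ZT4 list holds 29 peaks and bears on none of these counts. The peaks alone ranked far below the shared ones, with a median percentile of 12.4 against 61.3 at 20 M ZT16 and 2.55 against 52.2 at 4 M ZT4. No comparison at matched rank was made.

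The share of 20 M ZT16 peaks that were alone varied with length. The shortest 4 M ZT4 peak was 46 bp, and 8292 peaks of the 20 M ZT16 list were shorter, from 39 to 45 bp. Of these, 6329 (76.3%, 75.4 to 77.2) were alone, 31.6% of all peaks alone at 20 M ZT16, with a median score of 64. Among peaks of 46 to 100 bp, 5804 of 56047 (10.4%) were alone. Among peaks over 100 bp, 7865 of 23609 (33.3%) were alone, with a median score of 20. Without the peaks under 46 bp, an alternative chosen after seeing the data, 13669 peaks were alone at 20 M ZT16 and 4672 at 4 M ZT4, and 70.4% of shared sites were higher at 20 M ZT16. This cut removes 20 M ZT16 peaks only, shared ones included. A 4 M ZT4 peak that loses its only partner then counts as alone, which raises the count at 4 M ZT4. At 4 M ZT4 the alone peaks were long for their list, with a median of 132 bp against 72 bp for shared peaks.

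Part of the peaks alone stood side by side in blocks with no shared site between them. In 388 runs of at least 5 consecutive peaks alone at 20 M ZT16 there were 3636 peaks (18.2% of those alone), with a median score of 18 and a median length of 142 bp. The 9344 that stood singly (46.7%) had a median score of 52 and a median length of 48 bp. Such runs occurred on all 25 chromosomes. At 4 M ZT4, 91 runs of at least 5 held 725 peaks (26.1% of those alone), and 595 of these peaks (82.1%) were on chromosome 4.

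The longest runs, which were picked out after their values had been seen, covered long stretches. At 20 M ZT16, 57 consecutive peaks alone spanned 61.0 kb at chr6:45296246-45357286. A run of 51 spanned 63.3 kb at chr6:20138844-20202153, and another of 51 spanned 59.3 kb at chr9:56443601-56502945. Each had a median score of 16 or 17 and no peak above percentile 15. No other list had a peak in the first or the last of these blocks, and the 20 M ZT4 list had 1 in the block at 20 Mb of chromosome 6. At 4 M ZT4 the longest run had 25 peaks over 32.5 kb at chr4:62246621-62279147, followed by runs of 23 over 26.04 kb at chr4:36756745-36782786 and of 23 over 25.02 kb at chr4:53598547-53623568. None of these 3 blocks held a peak of the other 4 lists.

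Single peaks alone were seldom strong. The highest score alone at 20 M ZT16 was 300 (percentile 86.6), at a peak of 43 bp on scaffold KN150506v1, where the 4 M ZT4 list has no peak. The next was 208 (percentile 57.4) at chr1:32189947-32190000, 2518 bp from the nearest 4 M ZT4 peak. At 4 M ZT4 the highest was 231 (percentile 96.9) at chr15:3220662-3220737, only 181 bp from a 20 M ZT16 peak, and the next 182 (percentile 90.2) at chr4:38504722-38504800. The longest peaks alone at 20 M ZT16 were 5766 bp at chr5:820773-826538 and 5178 bp at chr5:832652-837829, near one end of chromosome 5 in the assembly, at percentiles 15.5 and 15.4. The longest at 4 M ZT4 were 2755, 2334 and 2151 bp, all on chromosome 4, of which the first lies within the run at chr4:53598547-53623568.

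By chromosome, the 2 lists differed most on chromosome 4. On the other 24 numbered chromosomes the share of peaks alone was 18.6% to 24.96% at 20 M ZT16 and 1.30% to 2.84% at 4 M ZT4, and the log2 ratio of peak numbers (20 M ZT16 over 4 M ZT4) was 0.28 to 0.38. Chromosome 4 had 4635 peaks at 20 M ZT16 and 4592 at 4 M ZT4, a log2 ratio of 0.01. There 1270 peaks (27.4%) were alone at 20 M ZT16 and 1343 (29.2%) at 4 M ZT4. Chromosome 4 therefore held 48.4% of all peaks alone at 4 M ZT4, while it held 6.53% of that list, and 6.35% of those alone at 20 M ZT16, against 5.27% of that list. The chromosome end up to 25 Mb was like the rest of the genome, with 264 of 1272 peaks alone at 20 M ZT16 (20.8%) and 11 of 1015 at 4 M ZT4 (1.08%). Beyond 25 Mb, 1006 of 3363 peaks were alone at 20 M ZT16 (29.9%) and 1332 of 3577 at 4 M ZT4 (37.2%). The scaffolds came next, with 827 of 2788 peaks alone at 20 M ZT16 (29.7%) and 153 of 2095 at 4 M ZT4 (7.30%).

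**Figure D3:**
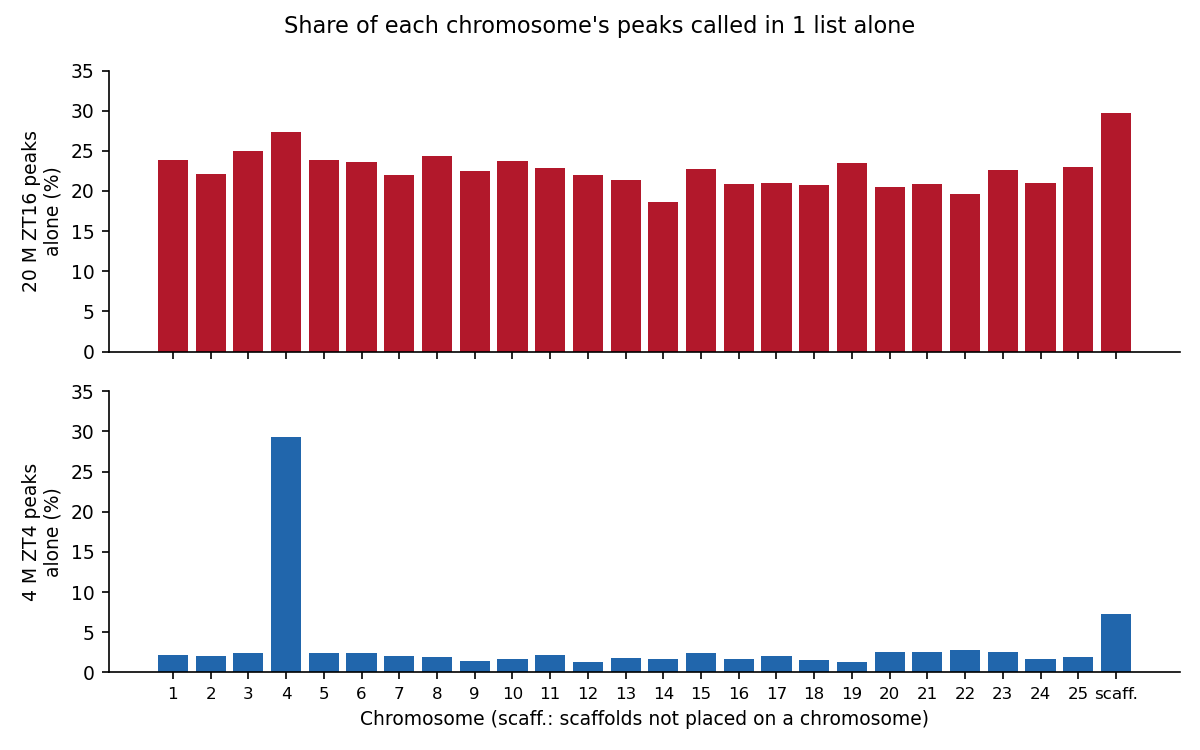
Share (%) of the peaks of each chromosome that were alone, for the 20 M ZT16 list (top) and the 4 M ZT4 list (bottom), with unplaced scaffolds last. At 20 M ZT16 the bars lie between 18.6% and 29.7%, and at 4 M ZT4 chromosome 4 stands at 29.2% where the other numbered chromosomes reach at most 2.84%.

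In the median difference in percentile at the sites that both lists shared, chromosome 4 did not stand apart. Its 3107 sites with 1 peak in each list had a median difference in percentile of 8.46 points, and the other numbered chromosomes had medians of 7.97 to 9.57. The Spearman correlation of percentiles on chromosome 4 was 0.937. That of peak lengths was 0.876 there, against 0.915 over all sites with 1 peak in each list. The 183 sites at least 25 points lower at 20 M ZT16 included 5 on chromosome 4.

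In windows of 1 Mb the 20 M ZT16 list, which is 1.25 times as long as the other, had more peaks in most of the genome. It had a median of 60 peaks in a window, and the 4 M ZT4 list had 49, over 1352 windows that held a peak. The 4 M ZT4 list had more peaks in 31 windows, and in 330 when the 20 M ZT16 list was reduced to the size of the other. Of the 31, 29 were on chromosome 4 beyond 25 Mb, out of 52 windows there, and the other 2 were on chromosomes 5 and 21. The log2 ratio over the whole lists was 0.32, and its median was -0.14 on chromosome 4 beyond 25 Mb and 0.29 in the windows of the other chromosomes. All 1352 windows held a peak alone at 20 M ZT16, and 690 held one alone at 4 M ZT4.

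**Figure D4:**
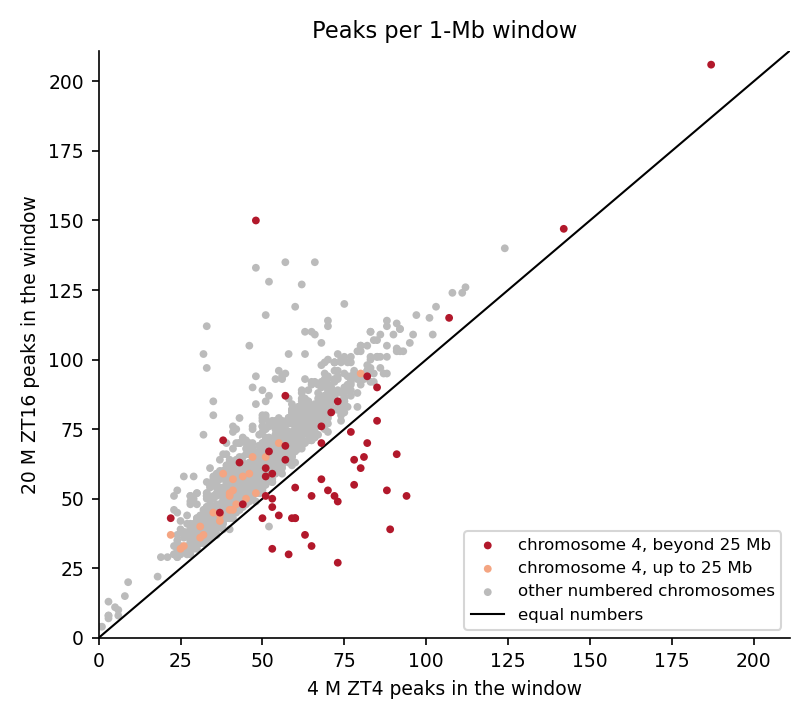
Number of 20 M ZT16 peaks (vertical axis) against number of 4 M ZT4 peaks (horizontal axis) in each of 1352 windows of 1 Mb, with chromosome 4 beyond and up to 25 Mb coloured and the line of equal numbers drawn. Of the 31 windows below the line, 29 are on chromosome 4 beyond 25 Mb. The lists were not reduced to equal size.

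The windows with the highest ratio were chr1:20000001-21000000, with 112 peaks at 20 M ZT16 and 33 at 4 M ZT4 (log2 ratio 1.76), and chr1:43000001-44000000, with 102 at 20 M ZT16 against 32 at 4 M ZT4 (1.67). The third was chr4:31000001-32000000, with 150 peaks at 20 M ZT16 and 48 at 4 M ZT4 (1.64), and it also held the most peaks alone at 20 M ZT16 (114). The windows at 35 to 36 Mb of chromosome 3 and at 20 to 21 Mb of chromosome 6 held 87 such peaks each. The lowest ratio was at chr4:37000001-38000000, with 27 peaks at 20 M ZT16 and 73 at 4 M ZT4 (-1.43), next to chr4:36000001-37000000 with 51 at 20 M ZT16 and 94 at 4 M ZT4. Windows at 50 to 51 Mb and 56 to 57 Mb of chromosome 4 had ratios of -1.19 and -0.98. The window at 53 to 54 Mb of chromosome 4 held many peaks alone of both lists, 68 at 20 M ZT16 and 64 at 4 M ZT4, with nearly equal totals of 115 at 20 M ZT16 and 107 at 4 M ZT4. Along its long arm, chromosome 4 therefore held windows with an excess of either list, some of them a few megabases apart.

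The peaks were next placed against the 1337 loci that the study lists as differing in expression with time of day or age, 358 of them with a gene name, each taken with 3 kb on either side. The positions come from the study's supplementary lists, and the expression values were not used. At 640 loci (47.9%) there was a site with 1 peak in each list. A peak alone, as defined above, lay at 235 loci for 20 M ZT16 and at 84 for 4 M ZT4. Peaks of both lists lay at 648 loci, peaks of the 20 M ZT16 list only at 76, peaks of the 4 M ZT4 list only at 49, and no peak at 564. These counts moved with the setting. With lists of equal size, 13 loci had a 20 M ZT16 peak only and 59 a 4 M ZT4 peak only. Without peaks under 46 bp, 45 had a 20 M ZT16 peak only and 62 a 4 M ZT4 peak only. That cut removes peaks of the 20 M ZT16 list only, which remained the longer list. What moved the counts was not tested. The 25 annotated loci with a 20 M ZT16 peak and no 4 M ZT4 peak stood against 2 in the other direction, while for the 979 unannotated loci the counts were 51 with a 20 M ZT16 peak only and 47 with a 4 M ZT4 peak only. With lists of equal size, 5 annotated loci had a 20 M ZT16 peak only and 2 a 4 M ZT4 peak only, while of the unannotated loci 8 had a 20 M ZT16 peak only and 57 a 4 M ZT4 peak only. With chromosome 4 left out of the full lists, 41 unannotated loci had a 20 M ZT16 peak only and 8 a 4 M ZT4 peak only. For annotated loci these counts stayed at 25 and 2. The shares of peaks alone that follow were not recomputed without chromosome 4. Of the 4 M ZT4 peaks at annotated loci 11 of 665 (1.65%) were alone, and of those at unannotated loci 120 of 927 (12.9%), against 3.94% of the list. Of the 20 M ZT16 peaks, 160 of 820 at annotated loci (19.5%) and 242 of 1055 at unannotated loci (22.9%) were alone, against 22.7% of the list. Sites at annotated loci were at least 25 points higher at 20 M ZT16 in 44 of 648 cases (6.79%) and lower in 2, close to the 7.94% and 0.274% of all sites.

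Among the genes of 10 lists chosen for their function (120 genes, all with a locus) and fbxo32, 35 had a peak of one list alone. At 32 of them such a peak was at 20 M ZT16, at 6 it was at 4 M ZT4, and at 3 (clocka, per3 and slc2a1a) there were peaks of each kind. These loci held 279 peaks of 20 M ZT16, of which 56 (20.1%) were alone, against 22.7% of the list, and 229 peaks of 4 M ZT4, of which 7 (3.06%) were alone, against 3.94% of the list. The 56 peaks had a median percentile of 13.7 and a maximum of 35.2, and 21 of them were shorter than 46 bp.

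The loci of the 10 lists held 219 sites with 1 peak in each list. By percentiles among the shared sites, the median difference over these was -0.85 points and 96 of them (43.8%) were higher at 20 M ZT16, against 50.3% of all shared sites. By these ranks 1 site (0.457%) was at least 25 points higher at 20 M ZT16, against 2.09% of all shared sites, and it lay in nr1d2b. At least 25 points lower were 8 sites (3.65%), against 2.15% of all shared sites. These lay at the loci of per3, hapln1a, nr1d4a, clocka, hsp90aa1.1, myhc4 and nr1d4b (2 sites). Differences below are between percentiles of the whole lists unless ranks among the shared sites are named.

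**Figure D5:**
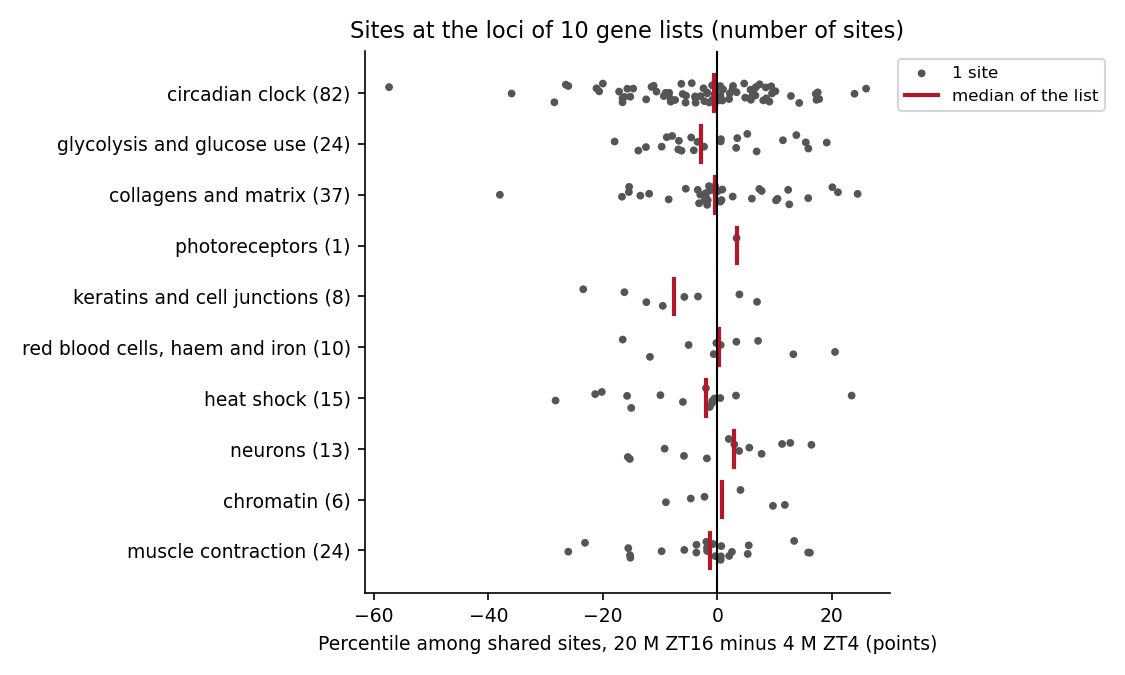
Percentile at 20 M ZT16 minus percentile at 4 M ZT4 at each site with 1 peak in each list, ranked among the 66703 such sites, for the loci of 10 gene lists (number of sites in brackets). Points are sites, red bars list medians and the vertical line 0. List medians lie between -7.64 (keratins and cell junctions, 8 sites) and 3.36 points (photoreceptors, 1 site), and the lowest point, at -57.3, is a site in per3.

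The circadian clock list had the most sites. The clock is a feedback loop in which CLOCK and BMAL proteins activate the per and cry genes, whose products repress them, and in which nuclear receptors of the REV-ERB and ROR families add a further loop. Peaks were called at 17 of its 20 loci in both lists. At 82 sites the median difference was 4.33 points, with 59 sites (72.0%) higher at 20 M ZT16, against 80.5% of all sites. By ranks among the shared sites the median was -0.66 points and 37 sites were higher at 20 M ZT16. Of the 82 sites, 1 was higher by at least 25 points, against 2.09% of all shared sites. Lower by at least 25 points were 5, against 2.15% of all shared sites. The long loci of nr1d4a and nr1d4b, which may hold other genes, gave 12 and 16 of the 82 sites and some of those 5. The list was not summarised without them. The lowest of the 82 sites lies in per3, a period gene, where chr11:39727685-39727948 was a peak of 264 bp at percentile 46.6 at 20 M ZT16 and one of 76 bp at percentile 88.3 at 4 M ZT4. Among the shared sites its difference was -57.3 points. Elsewhere in per3 a site at chr11:39715380-39715447 was at percentile 59.1 at 20 M ZT16 and 39.3 at 4 M ZT4, so sites of this gene lay on either side of equality.

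Loci of REV-ERB family genes also held both directions. In nr1d2b a site at chr19:17942794-17942859 was at percentile 66.3 at 20 M ZT16 and 33.0 at 4 M ZT4, a difference of 25.997 points among the shared sites. In nr1d4a the differences at 12 sites ran from 28.3 to -24.2 points, the lowest being at percentile 58.8 at 20 M ZT16 and 83.0 at 4 M ZT4. In nr1d4b those at 16 sites ran from 28.3 to -14.1 points, and 4 peaks alone at 20 M ZT16 lay within 3 kb at percentiles of 4.57 to 7.58. The study's loci of these 2 genes are long. Peaks inside the nr1d4b locus ran from chr11:1943398 to chr11:2223113, and those inside the nr1d4a locus from chr23:35714981 to chr23:35835884. Without a gene annotation it could not be read whether such a locus also holds other genes. In clocka, which encodes the activator CLOCK, the differences at 6 sites ran from 17.0 to -18.5 points. By ranks among the shared sites they ran from 5.88 to -28.5 points in clocka. The same ranks gave 24.0 to -35.9 points in nr1d4a and 17.8 to -26.5 points in nr1d4b. In cry2, a cryptochrome repressor, a site within the locus was at percentile 59.5 at 20 M ZT16 and 33.0 at 4 M ZT4, and one in its flank at 75.3 at 20 M ZT16 against 88.3 at 4 M ZT4. The ROR-family genes rorab and rorcb, and tefb and hlfa, which encode PAR bZIP output factors of the clock, had 29 peaks at 20 M ZT16 together, of which 7 (24.1%) were alone, close to the 22.7% of the list.

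Collagen and matrix genes were like the lists as a whole. Of their 49 peaks at 20 M ZT16, 12 were alone (24.5%, against 22.7% of the list), and none of the 37 at 4 M ZT4 was. The 20 M ZT16 percentile was higher at 30 of 37 sites (81.1%, against 80.5% of all sites), and by ranks among the shared sites the median difference was -0.43 points. In col1a1b, which encodes a chain of type I collagen, 5 peaks were alone at 20 M ZT16, the longest 790 bp at percentile 17.5. In col11a1b, a type XI collagen gene, a site at chr2:15724263-15724336 was at percentile 60.3 at 20 M ZT16 against 26.9 at 4 M ZT4. The largest difference in col1a2, the other type I chain, was 26.1 points, and that in postnb, which encodes the matrix protein periostin, was 25.9 points. By ranks among the shared sites these 2 differences were 21.1 and 12.6 points. The cartilage collagen gene col2a1a had 2 peaks at 20 M ZT16, at percentiles 8.36 and 21.7, and none at 4 M ZT4. The collagen chaperone gene serpinh1b had 1 site, at percentile 37.0 at 20 M ZT16 and 14.5 at 4 M ZT4. Among the shared sites its difference was 7.34 points. In hapln1a, a gene for a hyaluronan link protein, a site was at percentile 37.6 with 151 bp at 20 M ZT16 and at 58.7 with 81 bp at 4 M ZT4.

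Of the genes of glucose use, slc2a1a, which encodes the glucose transporter GLUT1, stood out by number. It had 9 peaks alone at 20 M ZT16, of scores 11 to 22 and percentiles 0.163 to 9.69, and 2 alone at 4 M ZT4 at percentiles 3.99 and 5.41. Its 3 shared sites differed by -1.96 to 5.19 points. The glycolytic genes gpib and pfkfb3 had 1 peak alone at 20 M ZT16 each, at percentiles 14.5 and 16.2. The site of pfkfb3 that both lists shared differed by -7.33 points. In pdk2b, which encodes a pyruvate dehydrogenase kinase, both sites were higher at 20 M ZT16, by 26.4 and 22.5 points. By ranks among the shared sites these differences were 19.1 and 6.87 points. Of the 35 peaks of the list at 20 M ZT16, 11 (31.4%, against 22.7% of all 20 M ZT16 peaks) were alone, 9 of them at slc2a1a. The 24 shared sites of the list had a median of 5.26 points, or -2.88 points by ranks among the shared sites.

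Muscle contraction genes are listed because they are among the loci of the study, although the tissue is brain. Of their 25 loci, 14 had a 20 M ZT16 peak and 12 a 4 M ZT4 peak. The genes acta1b (a skeletal actin), tcap (telethonin) and desma (desmin) had 1 peak each at 20 M ZT16, at percentiles 35.2, 6.67 and 11.1, and none at 4 M ZT4. The troponin gene tnnc1b had 1 at 4 M ZT4, at percentile 5.12, and none at 20 M ZT16. Single peaks alone at 20 M ZT16 also lay at actn3b, mybpc1, tnnt3b and casq1a. Of the 31 peaks at 20 M ZT16, 7 (22.6%) were alone, as in the whole list. The 24 shared sites had a median difference of 3.03 points, or -1.26 points by ranks among the shared sites. A site in the troponin I gene tnni2a.3 was at percentile 41.7 at 20 M ZT16 against 14.5 at 4 M ZT4. The largest difference in tnni2a.1 was 25.2 points. The site in the myosin heavy chain gene myhc4 was at 57.4 at 20 M ZT16 and 71.7 at 4 M ZT4. By ranks among the shared sites these differences were 13.4, 16.2 and -26.0 points.

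Among heat shock genes, hsc70, a chaperone gene, had a site at percentile 63.1 at 20 M ZT16 and 31.5 at 4 M ZT4. A site at the joint locus of hsp90aa1.1 and hsp90aa1.2 was at 56.7 at 20 M ZT16 and 73.0 at 4 M ZT4, and these adjacent copies cannot be told apart here. The 15 sites of the list had a median of 2.24 points, or -1.99 points by ranks among the shared sites. Single peaks alone at 20 M ZT16 lay at hsp90aa1.1, hspb6 and hsf2, and 2 lay at hspa4a. That made 5 of the 20 heat shock peaks at 20 M ZT16 (25%), close to the 22.7% of all 20 M ZT16 peaks. Of the red blood cell and haem genes, slc4a1a, which encodes the band 3 anion exchanger, had 3 sites that differed by 25.1, 10.5 and -6.24 points. By ranks among the shared sites these differences were 20.6, 7.12 and -16.5 points. The ferrochelatase gene fech had 1 peak alone at 4 M ZT4, at percentile 4.48, and a shared site at 71.2 at 20 M ZT16 and 51.4 at 4 M ZT4. Of the 11 peaks of the red blood cell list at 4 M ZT4, 1 (9.09%) was alone, against 3.94% of all 4 M ZT4 peaks. None of its 10 peaks at 20 M ZT16 was alone.

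Of the chromatin genes, hells, which encodes a helicase needed for DNA methylation in mammals, had 2 peaks alone at 20 M ZT16 (percentiles 27.1 and 23.2) and 2 shared sites 17.1 and 17.0 points higher at 20 M ZT16. By ranks among the shared sites these 2 sites were 11.8 and 4.05 points higher. The 6 sites of that list had a median of 0.91 points by ranks among the shared sites, with 3 of them higher at 20 M ZT16, and hmga1b had 1 peak alone at 20 M ZT16. In the chromatin list 3 of 9 peaks at 20 M ZT16 (33.3%) were alone, against 22.7% of all 20 M ZT16 peaks. Among the epithelial genes, evpla (envoplakin) had a single peak, alone at 20 M ZT16 at percentile 20.9, and cdh1 (E-cadherin) had 1 at percentile 18.4. These were 2 of the 10 peaks of the keratin and cell junction list at 20 M ZT16 (20%). The 8 shared sites of the keratin and cell junction list had a median of 5.31 points. Of these, 5 were higher at 20 M ZT16, against 80.5% of all sites. By ranks among the shared sites the median was -7.64 points, with 2 of the 8 higher. The widest differences were 20.1 points at ppl and -14.5 points at pkp3a (plakophilin). The site at krt94 (a keratin) differed by -9.50 points. Neuronal genes had 13 shared sites with a median of 8.51 points, among them one at rln3a, the relaxin-3 neuropeptide gene, at percentile 74.9 at 20 M ZT16 and 53.0 at 4 M ZT4, and pcp4a held the list's 1 peak alone, at 20 M ZT16. The photoreceptor genes had 1 shared site, 12.9 points higher at 20 M ZT16, or 3.36 points by ranks among the shared sites. In fbxo32, which encodes the muscle ubiquitin ligase atrogin-1, the sites were 2.80 and 26.3 points higher at 20 M ZT16. By ranks among the shared sites they differed by -8.91 and 18.4 points. Whether any list differs from the other sites was not tested, since each group is 1 pooled list.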

How the data were processed

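Reads of 50 bp from H3K9me3 chromatin of zebrafish brain were mapped to GRCz10 with Bowtie2, and peaks were called on each triplicate with MACS2 (version 2.2.1 in the submitters' processing notes). The authors deposited 1 BED list of 6 columns per group. Column 5 is the peak score, a whole number as the authors' peak caller wrote it, on a scale that is not given in the sources used here. The control library of the peak calls is likewise not given in the sources used here. The labels name Duke genome center or Genewiz for sequencing without assigning libraries, and the methods name Duke. The 4 other lists served to look up peaks.

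Overlap was at least 1 bp. Percentile is the mid-rank of the score within a list. Positions count from 1. Shares carry Wilson 95% intervals. The code (Python 3.11.15, numpy 2.4.6, pandas 2.3.3, scipy 1.17.1, statsmodels 0.14.6, matplotlib 3.10.9) was tested on simulated data and checked against bedtools 2.31.1.

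The gene lists and rules were chosen with earlier results of these data known. Named were, for each list, the 3 windows with most peaks alone and the 3 highest-scoring and 3 longest peaks alone, the 3 windows at each end of the ratio (at least 20 peaks), the 3 sites at each end of the difference and the 3 highest in both lists, listed genes and slc4a1a and fbxo32 with a peak alone, and the 10 with the largest difference each way among the rest. Genome sequence and gene annotation of GRCz10 were not used here.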

Additional observations from a re-analysis of the deposited data

How the results depend on the processing

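Each of 11 values was recomputed under alternatives, 72 values in all, of which 29 stayed within 1.5 times the count or within the 95% interval of the share and 43 did not. They cover the peaks alone in either list, the share of shared sites higher at 20 M ZT16, shifted by at least 25 points, and longer at 20 M ZT16, the share of peaks alone on chromosome 4, the windows with more 4 M ZT4 peaks, and the loci with a shared site or with a 20 M ZT16 peak only. With scores of at least 30 in both lists, 10305 peaks were alone at 20 M ZT16 and 498 at 4 M ZT4, 72.1% of shared sites were higher and 6.15% shifted, chromosome 4 held 5.60% of those alone at 20 M ZT16 and 64.1% of those at 4 M ZT4, and 46 loci had a 20 M ZT16 peak only. On numbered chromosomes, 80.0% were higher and chromosome 4 held 51.2% of the peaks alone at 4 M ZT4. Without chromosome 4, 1431 peaks were alone at 4 M ZT4, 81.6% of sites were higher, 9.88% shifted and 2 windows had more 4 M ZT4 peaks. With a reciprocal overlap of 50%, 5265 peaks were alone at 4 M ZT4, 81.0% of sites were higher and 45.1% longer, and chromosome 4 held 7.67% of peaks alone at 20 M ZT16 and 32.5% at 4 M ZT4. With peaks within 1 kb merged, 77.9% were higher, 7.04% shifted and 47.2% longer, and chromosome 4 held 5.44% of the peaks alone at 20 M ZT16 and 39.6% of those at 4 M ZT4 (these shares were added after seeing the data). With lists of equal size, 4180 peaks were alone at 20 M ZT16 and 4439 at 4 M ZT4, 48.6% of sites were higher, 3.73% shifted, chromosome 4 held 4.402% of peaks alone at 20 M ZT16 and 41.1% at 4 M ZT4, 330 windows had more 4 M ZT4 peaks and 13 loci had a 20 M ZT16 peak only. With percentiles among shared sites, 50.3% were higher and 4.24% shifted. With no flank, 310 loci had a shared site and 39 a 20 M ZT16 peak only. Leaving out peaks under 46 bp, an alternative chosen after seeing the data, gave 4672 peaks alone at 4 M ZT4, 70.4% of sites higher, 4.75% shifted, 47.4% longer, 7.00% and 31.3% of the peaks alone at 20 M ZT16 and 4 M ZT4 on chromosome 4, 92 windows with more 4 M ZT4 peaks and 45 loci with a 20 M ZT16 peak only. The cut at 46 bp removed 20 M ZT16 peaks only, and 4 M ZT4 peaks that lost their only partner then counted as alone. Of these settings, equal list size turned the order of the peaks alone, where near-equal counts follow from the equal size. Where the share was recomputed, chromosome 4 held 31.3% to 64.1% of the peaks alone at 4 M ZT4.

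No paired analysis was possible because each group has 1 pooled list, which also prevents leaving out a replicate. Read depth, which the lists do not record, limits all counts of peaks.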
